A study of Mus musculus with 4 samples.

Results

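The genes described here make and load MHC class II in Langerhans cells, the dendritic cells of the epidermis, and they were read on arrays from mice without the aryl hydrocarbon receptor (AhR) and from wild-type mice. There were 10 genes: the classical chains H2-Aa, H2-Ab1 and H2-Eb1, the DM and DO chaperones H2-DMa, H2-DMb1, H2-DMb2, H2-Oa and H2-Ob, the invariant chain Cd74 and the transactivator Ciita. Members were all probe sets that the platform annotation gave to a single listed gene, which came to 12 of the 22626 probe sets tested and covered 8 of the 10 genes. H2-DMb1 and H2-Ob had no probe set of their own. The AhR-deficient mice lack exon 2 of Ahr, and the wild-type mice were C57BL/6; the labels state no treatment of the mice and give no age. There were 2 arrays per genotype, named biological replicates in the labels, which do not say how many mice each came from. All samples were Langerhans cells of ear epidermis after 16 hours of culture, sorted for viability and surface class II to over 95% purity from a low-density fraction with 20 to 35% Langerhans cells. The values are log2 expression values, so a difference of 1 is a doubling, and every difference below is AhR-deficient minus wild-type.

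A class II molecule is a pair of an alpha and a beta chain that carries a peptide from the endosome to the cell surface for CD4+ T cells. In the endoplasmic reticulum the invariant chain fills the groove and steers the pair to endosomes, where DM removes the last fragment of the invariant chain and DO restrains DM. The genes are switched on together when Ciita, which does not bind DNA itself, joins the factors RFX, CREB and NF-Y on the X and Y boxes of their promoters. Maturing dendritic cells are known to switch Ciita transcription off while surface class II persists. AhR is a ligand-activated transcription factor, and its core DNA motif is GCGTG.

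The X and Y box letters in the promoters are shown because genes with and without a difference between genotypes share them. RefSeq promoter windows of GRCm38.p6, running from 250 bases before to 50 after a start site, were matched for 7 of the 10 genes (8 windows). H2-Ab1, Cd74 and Ciita were not matched. The capitals mark AAC, the core of the X box that RFX binds, and ATTGG, the Y box that NF-Y binds. The stretches are H2-Aa at chr17:34287837-34287932, minus strand, H2-Eb1 at chr17:34305748-34305842, plus strand, H2-DMb2 at chr17:34145098-34145193, plus strand, and H2-Oa at chr17:34092275-34092370, plus strand, each written 5′ to 3′ in the direction of the gene.
H2-Aa: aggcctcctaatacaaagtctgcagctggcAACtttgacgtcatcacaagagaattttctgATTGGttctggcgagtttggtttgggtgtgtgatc
H2-Eb1: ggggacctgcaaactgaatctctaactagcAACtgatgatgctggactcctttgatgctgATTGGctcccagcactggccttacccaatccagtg
H2-DMb2: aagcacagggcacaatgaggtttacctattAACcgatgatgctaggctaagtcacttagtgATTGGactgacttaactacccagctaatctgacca
H2-Oa: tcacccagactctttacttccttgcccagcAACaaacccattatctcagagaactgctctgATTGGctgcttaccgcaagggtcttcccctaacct
In all 4 stretches 27 or 28 bases lay between AAC and ATTGG. The same pair, with 25 to 30 bases between, was found on the gene's own strand in 6 of the 8 windows, against 1.76% of 32851 windows of all genes (3.63% with both strands searched). The exceptions were both windows of H2-DMa. ATTGG alone, on either strand, was in 7 of the 8 windows and in 37.4% of all windows. GCGTG was in 0 of the 8 and in 32.4% of all windows, which says only that these letters are not in these stretches. The spacing was set after the member windows had been read, so these shares are a description.

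The classical chains and Cd74 were higher in AhR-deficient cells on every array, while DM, DO and Ciita differed little or not detectably at this number of arrays. All 7 probe sets of H2-Aa, H2-Ab1, H2-Eb1 and Cd74 had both AhR-deficient values above both wild-type values, by 1.91- to 3.98-fold in the means. None passed the adjustment over all probe sets (limma, adjusted p from 0.254 to 0.654). In bulk RNA, a greater share of cells with high class II and more class II RNA per cell cannot be told apart, and the cells had been gated on surface class II.

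**Figure D1:**
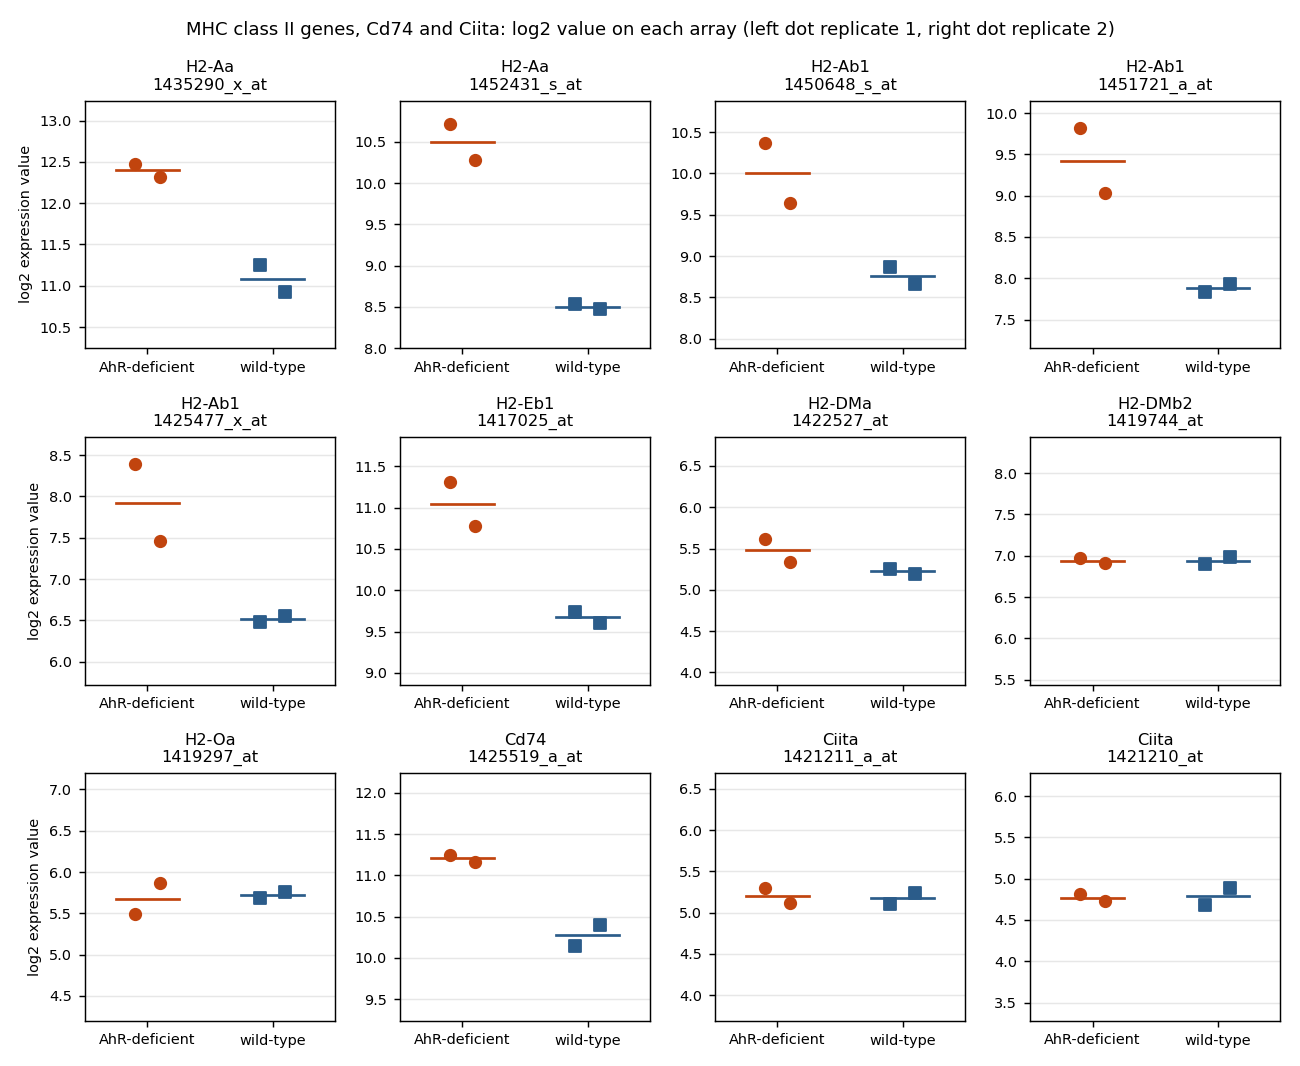
Log2 expression value (vertical axis, 3 log2 units in every panel) of each class II probe set on the 2 AhR-deficient arrays (circles) and the 2 wild-type arrays (squares); bars are genotype means. The dots of H2-Aa, H2-Ab1, H2-Eb1 and Cd74 separate by genotype, and those of H2-DMb2, H2-Oa and Ciita overlap.

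H2-Aa encodes the alpha chain of I-A, the class II molecule that C57BL/6 mice display. Its brighter probe set, 1435290_x_at, read 12.47 and 12.32 in AhR-deficient cells, against 11.25 and 10.92 in wild-type cells. The lower AhR-deficient array stood 1.07 above the higher wild-type array. The log2 difference was 1.31 (SE 0.14, 95% interval 0.92 to 1.70), 2.48-fold, with a limma adjusted p of 0.306. The other probe set, 1452431_s_at, read 10.71 and 10.28 in AhR-deficient cells, against 8.53 and 8.47 in wild-type cells. It gave the largest difference of all member probe sets, 1.99 (SE 0.17, 95% interval 1.54 to 2.45), or 3.98-fold, which ranked 5 among the upward differences of all probe sets and still had an adjusted p of 0.254 in limma. The gene's probe sets thus gave the same direction and unequal sizes, with intervals that overlap. Both names end in _x_at or _s_at, which Affymetrix gives to sets whose probes may match more than a single transcript.

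H2-Ab1 encodes the beta chain that pairs with H2-Aa. Its probe set 1450648_s_at read 10.37 and 9.64 in AhR-deficient cells, against 8.87 and 8.66 in wild-type cells, differing by 1.24 (SE 0.27; adjusted p = 0.624 in limma). Probe set 1451721_a_at read 9.81 and 9.03 in AhR-deficient cells, against 7.84 and 7.93 in wild-type cells, differing by 1.54 (SE 0.28). Probe set 1425477_x_at read 8.39 and 7.46 in AhR-deficient cells, against 6.48 and 6.56 in wild-type cells, differing by 1.41 (SE 0.32). The 3 probe sets gave close sizes, and the groups did not overlap in any. AhR-deficient replicate 1 lay above replicate 2 by 0.72, 0.79 and 0.92 log2 units, while the wild-type arrays differed by at most 0.21. The size of the H2-Ab1 difference thus depended on the AhR-deficient arrays: it was 0.88 without replicate 1 and 1.60 without replicate 2.

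H2-Eb1 encodes the beta chain of I-E, the second classical class II molecule of mice. It read 11.31 and 10.78 in AhR-deficient cells, against 9.74 and 9.60 in wild-type cells, with no overlap and again the highest value in AhR-deficient replicate 1. The difference was 1.37 (SE 0.20, 95% interval 0.82 to 1.92), or 2.59-fold (adjusted p = 0.460 in limma). Its partner H2-Ea is known to be inactive in C57BL/6 mice, and RefSeq lists it as a transcribed pseudogene. The 3 H2-Ea probe sets differed by 0.03 (SE 0.09), -0.03 (SE 0.11) and -0.13 (SE 0.08). A pair of them read between 3.59 and 4.03 on the 4 arrays, below the arrays' 25th percentiles of 4.54 to 4.57, and the third read 7.64 to 7.77. The H2-Eb1 difference had no counterpart in the H2-Ea signal, which an inactive gene may not be able to show.

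Cd74, the invariant chain, read 11.25 and 11.16 in AhR-deficient cells, against 10.15 and 10.39 in wild-type cells. The groups did not overlap, and the AhR-deficient arrays lay within 0.10 of each other. The difference was 0.93 (SE 0.12, 95% interval 0.62 to 1.24), or 1.91-fold, with an adjusted p of 0.374 in limma. It was the smallest of the differences of these 4 genes.

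The DM chaperone genes showed small differences. H2-DMa, the alpha chain of DM, read 5.62 and 5.34 in AhR-deficient cells, against 5.26 and 5.19 in wild-type cells. The AhR-deficient values were both higher, by a margin of 0.08 at the nearest point. The difference of 0.26 (SE 0.12, 95% interval -0.07 to 0.59) did not pass (adjusted p = 0.865 in limma), and it was 0.12 without AhR-deficient replicate 1 and 0.39 without replicate 2. H2-DMb2, a beta chain of DM, read 6.97 and 6.91 in AhR-deficient cells, against 6.90 and 6.98 in wild-type cells, which overlap. Its difference was 0.00 (SE 0.08), with a 95% interval of -0.22 to 0.22. H2-DMb1, the other DM beta gene, shares both of its probe sets with H2-DMb2, so the signal of the genes cannot be separated there. These shared sets differed by 0.07 (SE 0.08) and 0.19 (SE 0.09). Both were higher in AhR-deficient cells without overlap, as were 19.0% of all probe sets, and neither passed (limma, adjusted p 0.928 and 0.870). The set with the smaller difference read 3.95 to 4.06, below the arrays' 25th percentiles of 4.54 to 4.57. The other read 6.78 and 6.64 in AhR-deficient cells, against 6.48 and 6.57 in wild-type cells.

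H2-Oa, the alpha chain of DO, read 5.49 and 5.86 in AhR-deficient cells, against 5.68 and 5.76 in wild-type cells. The wild-type arrays lay between the AhR-deficient arrays, and the difference was -0.04 (SE 0.15, 95% interval -0.44 to 0.36). H2-Ob, the beta chain of DO, shares its only probe set with the gene Gm20506. That set read 6.14 and 5.84 in AhR-deficient cells, against 5.91 and 5.75 in wild-type cells, which overlap.

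Ciita was measured by a pair of probe sets. Probe set 1421211_a_at read 5.29 and 5.12 in AhR-deficient cells, against 5.11 and 5.24 in wild-type cells, differing by 0.04 (SE 0.10, 95% interval -0.24 to 0.32). Probe set 1421210_at read 4.81 and 4.73 in AhR-deficient cells, against 4.68 and 4.89 in wild-type cells, differing by -0.01 (SE 0.11, 95% interval -0.30 to 0.27). The groups overlapped in both. These values lay below the array medians of 5.60 to 5.63, as did H2-DMa at 5.19 to 5.62 against each array's own median. A fold change is understated in a dim probe set, so the intervals bound the difference in signal and not that in RNA.

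**Figure D2:**
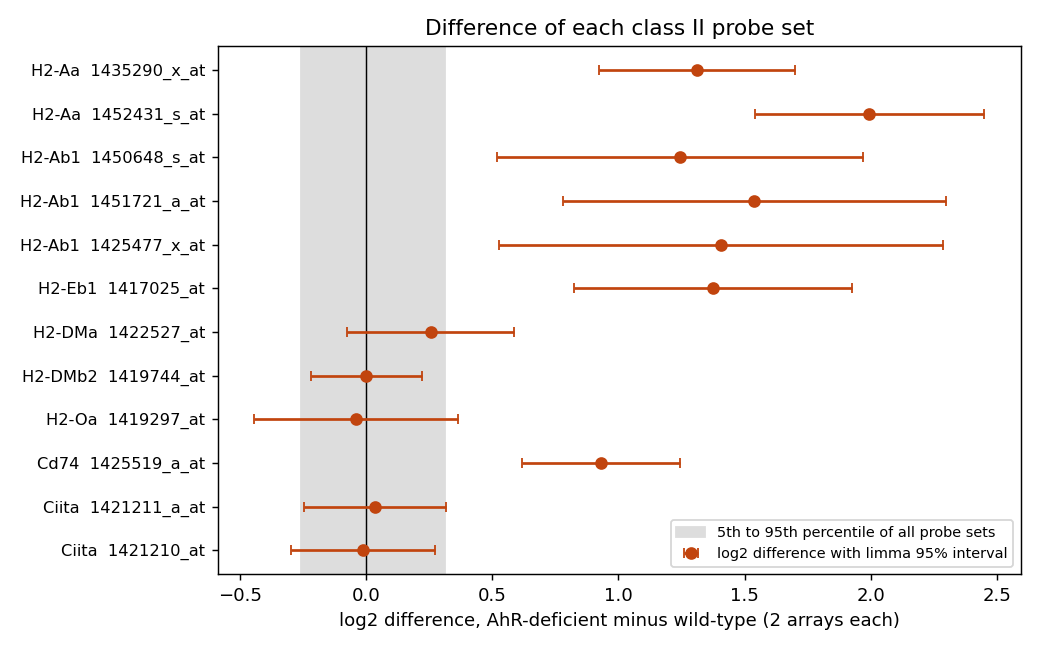
Log2 difference, AhR-deficient minus wild-type (horizontal axis), of each class II probe set with limma's 95% interval (2 arrays per genotype); the grey band spans the 5th to 95th percentile of the differences of all probe sets, -0.26 to 0.31. The 7 sets of the classical chains and Cd74 lie between 0.93 and 1.99, outside the band, and the 5 sets of DM, DO and Ciita lie inside it.

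As a group, 8 of the 12 member probe sets had both AhR-deficient values above both wild-type values and 0 had the reverse, where 19.0% of all probe sets were higher without overlap and 16.2% lower. The 8 were the 7 sets of the classical chains and Cd74 and that of H2-DMa. At an unadjusted p under 0.05 in limma, 7 of the 12 were higher and 0 lower, against 3.36% and 2.64% of all probe sets. A difference of at least 1 upward was seen in 6 of the 12 and in 0.407% of all probe sets, and downward in 0 of the 12 and in 0.274%. At an adjusted p under 0.05, 0 of the 12 were higher and 0 lower in limma, and over all probe sets 0 (0.00%) were higher and 4 (0.0177%) lower. Probe sets of the same gene and genes switched on by the same factor are not independent of each other.

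With a single probe set per gene, the brightest, 5 of the 8 measured genes were higher without overlap and 0 lower, against 18.8% and 16.6% of 12393 genes. The median log2 difference was 0.59 over the 8 genes, 1.28 over the classical chains and Cd74, and 0.02 over H2-DMa, H2-DMb2, H2-Oa and Ciita; over all genes it was 0.01. Each gene's values were then centred on its mean over the 4 arrays and averaged. For the classical chains and Cd74 this gave 0.80 and 0.42 in AhR-deficient cells, against -0.55 and -0.66 in wild-type cells. For the other 4 genes it gave 0.05 and 0.01 in AhR-deficient cells, against -0.06 and -0.003 in wild-type cells. The first set of genes was above the other on both AhR-deficient arrays, by 0.75 and 0.40. It was below the other on both wild-type arrays, by -0.49 and -0.66. The split was not among the planned results and follows the sizes of the members' differences. After centring, a set above on some arrays must lie below on others. The medians and array values of the 2 sets therefore restate the differences above and do not add support to them. With 2 arrays against 2, an exact two-sided permutation test cannot go below 0.333, so this split was not tested over arrays.

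**Figure D3:**
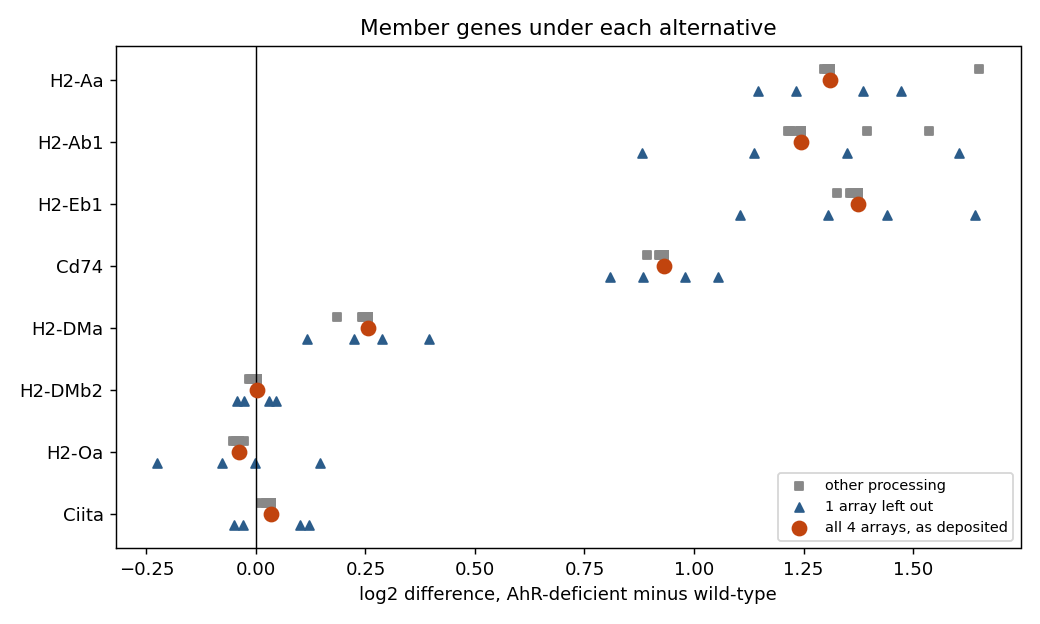
Log2 difference, AhR-deficient minus wild-type (horizontal axis), of each of the 8 measured genes from all 4 arrays as deposited (circles), with 1 array left out (triangles) and under other processing (squares). H2-Aa, H2-Ab1, H2-Eb1 and Cd74 stay between 0.81 and 1.65, while H2-DMb2, H2-Oa and Ciita fall on both sides of 0. The squares include a mean over all probe sets of the gene, which gave the 1.65 of H2-Aa.

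The class II genes lie in the MHC on chromosome 17, apart from Cd74 and Ciita, among genes of class I peptide transport. In the order along the chromosome, H2-Oa, H2-DMa and H2-DMb2 come first, then Psmb9, Tap1, Psmb8 and Tap2, and then H2-Ab1, H2-Aa and H2-Eb1. Of 17 measured neighbours, 6 were higher and 2 lower without overlap, none passed adjustment, and their median difference was 0.13. Over all genes, 18.8% were higher and 16.6% lower without overlap. Psmb9, an immunoproteasome subunit, differed by 0.71 (SE 0.14), and Tap1, a subunit of the peptide transporter, by 0.72 (SE 0.24). Tapbp, which links the transporter to class I, differed by 0.47 (SE 0.19). The genes beyond H2-Eb1 were nearer 0, with 0.03 for the brightest H2-Ea set and 0.16 (SE 0.08) for Notch4.

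**Figure D4:**
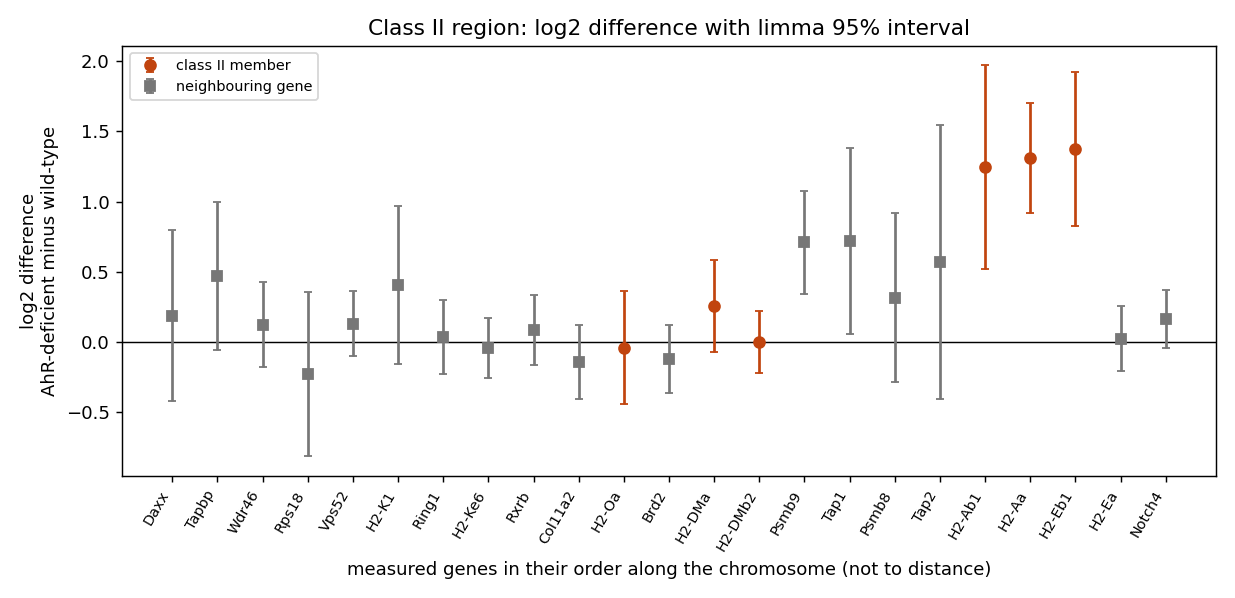
Log2 difference, AhR-deficient minus wild-type, with limma's 95% interval (vertical axis) of the measured class II members (circles) and their neighbours (squares), in their order along the chromosome and not to distance. H2-Ab1, H2-Aa and H2-Eb1 stand at 1.24 to 1.37, and H2-Oa, H2-DMa and H2-DMb2 between -0.04 and 0.26.

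The factors that bind class II promoters gave small differences. Of 9 measured genes for these factors and their coactivators, 0 passed in either direction, 3 were higher and 1 lower without overlap, and the median was 0.11. Nfya, a subunit of NF-Y, read 7.47 and 7.34 in AhR-deficient cells, against 7.05 and 7.24 in wild-type cells, differing by 0.26 (SE 0.11). The acetyltransferase gene Kat2b differed by 0.25 (SE 0.13) and Rfx5, the largest RFX subunit, by -0.13 (SE 0.09). Of 12 measured regulators known to act on Ciita, 0 passed, 3 were higher and 1 lower without overlap, and the median was 0.08. With 18.8% of all genes higher and 16.6% lower without overlap, the small counts of both lists are not read as a result. Irf8, a transcription factor of dendritic cells and macrophages, read 8.91 and 8.52 in AhR-deficient cells, against 9.15 and 9.29 in wild-type cells, differing by -0.51 (SE 0.16; adjusted p = 0.770 in limma). Spi1, encoding PU.1, differed by 0.20 (SE 0.09), and Jak2, a kinase of the interferon-gamma receptor, by 0.34 (SE 0.17).

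Among the genes that prepare class II peptides, a thiol reductase and some of the proteases had higher values in AhR-deficient cells without overlap, other proteases overlapped between genotypes, and none passed adjustment. Of 13 measured genes of peptide loading and traffic, 0 passed, 7 were higher and 0 lower without overlap, and the median was 0.28. The shares over all genes were 18.8% higher and 16.6% lower. Ifi30, the thiol reductase that unfolds endosomal antigens, read 11.65 and 11.22 in AhR-deficient cells, against 10.20 and 10.46 in wild-type cells, differing by 1.11 (SE 0.19). The endosomal proteases Ctsb and Ctsl differed by 1.22 (SE 0.21) and 1.22 (SE 0.33). The adjusted p-values of these 3 genes in limma were between 0.533 and 0.710. The proteases Lgmn and Ctsd were also higher without overlap, by 1.02 (SE 0.28) and 0.56 (SE 0.16). Ctss, a protease that cuts the invariant chain, read 12.64 and 12.56 in AhR-deficient cells, against 11.90 and 12.63 in wild-type cells, which overlap. Sppl2a, a protease that clears the remaining invariant chain fragment from the membrane, differed by 0.003 (SE 0.08).

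The genes whose values over the 4 arrays lay nearest to the mean centred profile of the 8 member genes were, by Euclidean distance in log2 units, Usp25 (0.08), St6galnac4 (0.09), Tmem106a (0.09), B2m (0.09), Tubb2b (0.11), Plekha1 (0.11), Stxbp6 (0.11) and Stard4 (0.12). Their differences ran from 0.57 to 0.72. This mean profile lies between the 2 kinds of member genes: the members' own distances from it ran from 0.36 for Cd74 to 0.79 for H2-Oa.

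The Langerhans cell marker Cd207, encoding langerin, was bright in both genotypes. It read 11.21 and 11.71 in AhR-deficient cells, against 11.00 and 12.06 in wild-type cells. None of the 11 measured Langerhans cell markers lay below the 25th percentile on all arrays. The same held for the 7 measured markers of other dendritic cells and the 9 of melanocytes and mast cells. Passing this limit therefore does not show that a cell type was present. Of the 11 Langerhans cell markers, 2 were higher and 3 lower without overlap, and none passed adjustment. The lower were Csf1r (-1.05, SE 0.26), Cd24a (-0.43, SE 0.09) and Flt3 (-0.42, SE 0.16), and the higher Cd1d1 (0.71, SE 0.31) and Itgax (0.14, SE 0.10). The summed linear signal of the 11 was 10497 and 9759 in AhR-deficient cells, against 9907 and 14623 in wild-type cells. For this and the marker lists below, 18.8% of all genes were higher and 16.6% lower without overlap. Ahr itself read 8.55 and 8.60 in AhR-deficient cells, against 7.61 and 8.23 in wild-type cells; no source used here places its probes in exon 2, so it does not check the genotypes. Ahrr, a direct AhR target, fell by 3.11 (SE 0.11, limma adjusted p = 0.0403), a call lost when any of the 4 arrays was left out. Correlations between arrays across probe sets were 0.979 to 0.990. Both wild-type arrays lay nearer to AhR-deficient replicate 2 than to each other. The values were 0.988 for wild-type replicate 1 and 0.989 for wild-type replicate 2, against 0.987 between the wild-type arrays. Among markers of macrophages and neutrophils, 6 of 11 were higher and 1 lower without overlap. The higher ones included Cd68 (1.12, SE 0.19) and C1qb (1.16, SE 0.27), and the lower one was the macrophage marker Adgre1 (-0.89, SE 0.39). Fcgr1, S100a8 and S100a9 lay below the 25th percentile on all arrays. The summed linear signal of the 11 markers was 1602 and 1166 in AhR-deficient cells, against 733 and 948 in wild-type cells. Of 11 keratinocyte markers, 5 were higher and 1 lower without overlap, with sums of 934 and 495 in AhR-deficient cells, against 442 and 491 in wild-type cells; Krt15 and Sfn lay below that percentile. Of 9 T cell markers, 4 were lower and 0 higher without overlap, none passed adjustment, and Cd5 lay below that percentile. The lower ones included Cd3g (-1.26, SE 0.15), Cd2 (-0.70, SE 0.12) and Cd3d (-0.56, SE 0.15). The sums of the 9 were 367 and 392 in AhR-deficient cells, against 461 and 429 in wild-type cells. The part of these cell types in the class II values was not tested. For B cells, which also display class II, the sums of 10 markers overlapped, with 706 and 749 in AhR-deficient cells, against 737 and 743 in wild-type cells, and Cd79b lay below that percentile. Of 7 measured markers of other dendritic cells, 3 were higher and 2 lower without overlap, with sums of 1540 and 1200 in AhR-deficient cells, against 1258 and 1261 in wild-type cells. Of 9 melanocyte and mast cell markers, 3 were higher and 0 lower, with sums of 425 and 430 in AhR-deficient cells, against 422 and 425 in wild-type cells.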

How the data were processed

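Amplified, biotin-labelled RNA of the sorted cells was measured on Affymetrix MOE430A arrays, per the labels' protocols. The deposited table gives a log2 expression value for each probe set. Per the submitters' processing notes it was made with affy and RMA, which corrects background, normalises quantiles and summarises probes; the sources used here give neither versions nor a genome build. No scaling was added.

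The table has 22690 probe sets, of which 64 Affymetrix controls were dropped. By the platform annotation, 20380 had 1 symbol, 691 had several and 1555 had none. RefSeq genes of GRCm38.p6 served for names and gene order (20351 matched, 0 symbols changed), and RefSeq promoter windows of the same build for the sequences and motif shares.

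Differences were fitted in R 4.3.3 with limma 3.58.1 (lmFit, eBayes, two-sided, residual degrees of freedom 2, prior 2.27), with Benjamini-Hochberg adjustment over all 22626 probe sets, called at 0.05. SE and intervals are limma's moderated ones, and the median SE was 0.10. The number of arrays limits the precision. P-values measure the spread between these samples only, and no batch is named in the labels. The steps were tested on simulated data.

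All member probe sets were named. Of each context list, genes past adjusted p 0.05 or else the 3 with the smallest p were named, as were the 8 genes nearest in pattern; other named genes that are no members were chosen after their values were seen. Members and lists were chosen with earlier results of these data known. Samples were not treated as paired by replicate number. The deviations of same-numbered arrays correlated at r = -0.31 across 22626 probe sets, which cannot show whether arrays were processed in pairs.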

Additional observations from a re-analysis of the deposited data

How the results depend on the processing

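No member probe set was called under any of 14 alternatives (a replicate block, the crossed block, a trend or robust eBayes, dim sets left out, quantile normalisation again, median centring, array weights, 16 added on the linear scale, no _s_at or _x_at sets, each array left out), and the smallest adjusted p of a gene-level value was 0.244 in limma. For gene-level values the crossed block was left out, and a mean over all probe sets of each gene was added. H2-Aa, H2-Ab1, H2-Eb1, Cd74 and H2-DMa kept their direction in each alternative that gave a value, and 104 of 111 gene-level values did in all. H2-Aa has none without _s_at and _x_at sets, and its mean over probe sets was 1.65 against 1.31. The replicate block, trend, robust eBayes, array weights and dim filter left each difference unchanged. Values from these settings could not change direction, so the count overstates how far direction was tried. H2-DMb2 turned to -0.010 with median centring and -0.015 with quantile normalisation again. Leaving out 1 array gave -0.043 to 0.046 for H2-DMb2, -0.050 to 0.121 for Ciita and -0.225 to 0.146 for H2-Oa; the cause was not tested.

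The median over member genes was 0.26 without _s_at and _x_at sets, where H2-Aa drops out. With 1 array left out, the median was 0.51 to 0.69. Overlap is not read there, because a group of 1 array is more easily separated by chance. The share of all genes without overlap was not taken for those settings. Over all probe sets limma called 0 higher and 4 lower. That became 1 higher and 7 lower with a trend in eBayes, and 0 lower with 16 added. Leaving out any 1 array gave 0 higher and 0 lower. Whether the replicate numbers pair the samples could not be settled. A replicate block left 0 lower and 0 member calls. The crossed replicate block, which joins opposite replicate numbers and was added after seeing the data because the same-numbered deviations correlated at -0.31, also called 0.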

Other observations

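After the values had been seen, the 8 genes nearest to the mean centred profile of H2-Aa, H2-Ab1, H2-Eb1 and Cd74 alone were listed by the same distance over the 4 arrays. They were Tubb2a (distance 0.13), Ifi47 (0.23), Cd302 (0.23), Oasl2 (0.27), Calcb (0.28), Ifi30 (0.28), Tcaf2 (0.28) and Apoe (0.29). Ifi47, an interferon-inducible GTPase, read 7.09 and 6.66 in AhR-deficient cells, against 5.87 and 5.88 in wild-type cells. Cd302, a C-type lectin, read 6.20 and 5.81 in AhR-deficient cells, against 5.12 and 4.91 in wild-type cells. Neither passed adjustment (limma, adjusted p = 0.533 for both).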
